A study of Mus musculus with 4 samples.

Results

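The genes described here encode 10 proteins that carry out neurotransmitter release in neurons: Snap25, Syt1, Syp, Syn1, Syn2, Vamp1, Vamp2, Stx1a, Sv2a and Sv2b. They were chosen by name, as the non-control probes of the array that carry one of these symbols, which gave 26 of 41174 probes and 10 of 27670 gene names. The series compared brain RNA of male C57BL/6J mice aged 8 to 12 weeks after permanent middle cerebral artery occlusion (PMCAO), a stroke model made by leaving a nylon filament in the artery, with that of sham-operated mice, whose neck vessels were exposed under isoflurane before the wound was closed. Saline was injected intracerebroventricularly in both arms, and groups of 3 mice gave brains 6 h or 24 h after that injection. The series design names the hemisphere contralateral to the occlusion as the tissue hybridised, whereas the sample labels say only brain. Each time had 2 two-colour arrays on which PMCAO and sham RNA shared the spots, with PMCAO in Cy5 on sample 1 and in Cy3 on sample 2. The labels do not say whether samples 1 and 2 hold separate RNA or how the mice of a group were combined, so the p-values rest on array-to-array spread that may be technical.

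Transmitter release depends on the fusion of synaptic vesicles with the presynaptic membrane. Synaptobrevins of the vesicle (Vamp1, Vamp2) zip together with syntaxin 1A (Stx1a) and Snap25 of the plasma membrane into the SNARE complex, and synaptotagmin 1 (Syt1) senses the calcium that triggers fusion. Synaptophysin (Syp) and the SV2 glycoproteins (Sv2a, Sv2b) are built into the vesicle membrane, and the synapsins (Syn1, Syn2) tether vesicles into the reserve pool. All are abundant in brain and widely used as markers of nerve terminals.

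The 6 probes of 60 bases below show which stretch of a transcript each measurement reads where probes of a gene are compared. The first pair, from Vamp2, share the 50 bases in capitals and returned nearly the same ratios. The Syt1 pair share no base and lie far apart in the gene. The printed Snap25 and Syn1 probes each had a 24 h ratio of the opposite sign to another probe of the same gene. This also held for the Vamp2 pair against the probe that stands for Vamp2, and among the Sv2b probes. Sequences are given 5′ to 3′ as deposited with the array, with the coordinates of mouse build mm7 and the strand that the files give.
Vamp2, probe A_51_P446927, chr11:69171554-69172235, plus strand: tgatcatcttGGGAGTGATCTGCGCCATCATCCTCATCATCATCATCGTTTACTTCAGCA
Vamp2, probe A_52_P240905, chr11:69171564-69172245, plus strand: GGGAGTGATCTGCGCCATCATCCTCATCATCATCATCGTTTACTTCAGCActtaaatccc
Syt1, probe A_52_P94201, chr10:108103986-108104045, minus strand: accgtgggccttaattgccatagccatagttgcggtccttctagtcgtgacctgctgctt
Syt1, probe A_52_P679799, chr10:107962730-107962789, minus strand: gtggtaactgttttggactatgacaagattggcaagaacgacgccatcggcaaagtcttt
Snap25, probe A_52_P165961, chr2:136514748-136514796, plus strand: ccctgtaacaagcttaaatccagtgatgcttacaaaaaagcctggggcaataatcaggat
Syn1, probe A_52_P482360, chrX:19353787-19353846, minus strand: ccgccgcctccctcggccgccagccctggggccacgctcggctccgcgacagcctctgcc
The coordinates of both Vamp2 probes span 682 bases of genome for 60 bases of probe, so these probes cross a gap in the gene. Those of the Snap25 probe span 49 bases for 60 bases of probe, so they do not place the whole probe. Exons and untranslated regions of build mm7 were not assigned here.

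With all 4 arrays and no term for sample number, none of the 10 release genes passed the test between PMCAO and sham brain at either time, although each was well above background in all 8 channels. At 24 h their log2 ratios of PMCAO over sham ranged from -0.45 for Stx1a to 0.37 for Syn1 with a median of 0.07, beside a median of 0.00 over the 19127 genes tested. At 6 h they ranged from -0.06 to 0.11 with a median of 0.03, beside -0.01 over all genes. By limma's moderated test with Benjamini-Hochberg adjustment at 0.05 over all genes, 0 of 10 were called at either time or for the 24 h minus 6 h difference. At an unadjusted p under 0.05 the count was 1 higher and 0 lower at 24 h, the 1 being Syn1, and none at 6 h or in the difference. At this cut 2967 of the 19127 genes were higher and 2539 lower at 24 h. Over all genes, 0.816% were called higher and 0.0366% lower at 6 h, 7.84% higher and 4.52% lower at 24 h, and 1.29% higher and 0.298% lower for the difference. Leaving out a 24 h array changed these counts. Without sample 1 at 24 h, 4 genes were called higher (Syp, Syn1, Vamp1, Vamp2) and 1 lower (Snap25), and without sample 2 at 24 h, 0 were called higher and 4 lower (Syt1, Syp, Vamp2, Stx1a). The ratios of Syp and Vamp2 took opposite signs in these fits. In them a single array and a single dye orientation remain at 24 h, and the spread comes from the 6 h arrays. The same fits called more of all genes too, with 15.3% higher and 14.8% lower at 24 h without sample 1 and 13% higher and 7.94% lower without sample 2. The difference had 4 higher and 0 lower members without sample 1 at 24 h, beside 8.18% higher and 7.06% lower over all genes, and 0 higher and 3 lower without sample 2, beside 6.68% and 4.02%. With sample number, which equals dye orientation, as a block, Syn1 (adjusted p 0.0100) and Vamp1 (0.0243) were called higher and Syt1 (0.0066) and Stx1a (0.0138) lower at 24 h by limma. That fit called 20.5% of all genes higher and 19.3% lower at 24 h.

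**Figure D1:**
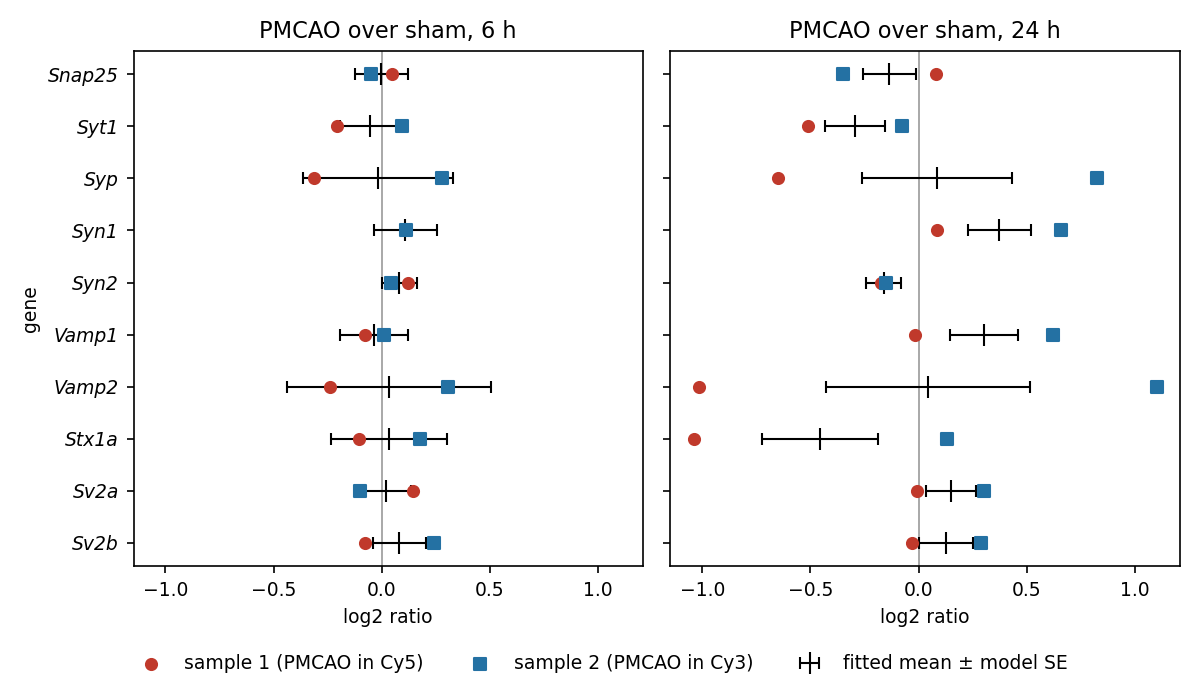
Log2 ratio of PMCAO over sham (horizontal axis) for each of the 10 release genes (rows) at 6 h and 24 h, with a circle for sample 1, a square for sample 2 and a bar for the fitted mean ± model standard error. The arrays of 24 h lie far apart for Vamp2, Syp and Stx1a and close together for Syn2.

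The gene with the widest spread between arrays at 24 h was a SNARE gene. Vamp2, the main synaptobrevin of forebrain terminals, read -0.24 on sample 1 and 0.30 on sample 2 at 6 h, and -1.01 on sample 1 and 1.10 on sample 2 at 24 h. Its arrays fell on opposite sides of 0 at both times, and the 24 h values enclosed those of 6 h. The fitted log2 ratio at 24 h was 0.04 ± 0.47 (model SE, n = 2 arrays), with a 95% interval of -1.13 to 1.22 and an adjusted p of 0.965 in limma. In the separate channels at 24 h, the log2 intensity of its probe was 14.08 for PMCAO and 15.09 for sham on sample 1, and 14.90 for PMCAO and 13.80 for sham on sample 2. The Cy3 channel was thus the brighter on both arrays, whichever RNA it carried. The probe that stands for the gene lies at chr11:69173599-69173658, downstream of the overlapping pair printed above. That pair read -0.35 and -0.30 on sample 1 and 0.20 and 0.23 on sample 2 at 24 h, opposed in the same way but with less distance between the arrays.

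Stx1a, the syntaxin that anchors the SNARE complex in the plasma membrane, had the lowest 24 h ratio of the 10 and ranked 786th from the lowest of the 19127 genes. Its single probe (chr5:134021887-134021946) read -0.11 and 0.18 at 6 h on samples 1 and 2, and -1.04 and 0.13 at 24 h. The low value came from sample 1 alone, while sample 2 of 24 h lay between the values of 6 h. The fitted log2 ratio at 24 h was -0.45 ± 0.27, or 0.730-fold, with a 95% interval of -1.12 to 0.22 and an adjusted p of 0.336 in limma (n = 2 arrays). Without sample 2 at 24 h the ratio was -1.04, and without sample 1 it was 0.13. Each of these fits holds a single array of 24 h, so its spread comes from the 6 h arrays. With sample number as a block, the adjusted p was 0.0138 in limma.

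Snap25, the SNARE protein that contributes a pair of helices to the complex, was close to 0 at 6 h. Its brightest probe (chr2:136522959-136523022) read 0.05 and -0.05 at 6 h and 0.08 and -0.35 at 24 h on samples 1 and 2. Its values crossed 0 at both times, with the PMCAO value lower than sham on sample 2. The 24 h log2 ratio was -0.14 ± 0.12, with a 95% interval of -0.44 to 0.17 and an adjusted p of 0.537. A probe that shares 40 bases with it gave -0.11, and the separate probe printed above gave 0.08. Vamp1, the synaptobrevin more prominent in spinal cord and brainstem, has a single probe (chr6:125248103-125248162) that read -0.08 and 0.01 at 6 h and -0.02 and 0.62 at 24 h. Its 24 h ratio of 0.30 ± 0.16 rested on sample 2, and the adjusted p was 0.281 in limma (n = 2 arrays). Without sample 1 at 24 h the ratio was 0.62 for Vamp1 and -0.35 for Snap25, each from a single array of that time. With sample number as a block, the adjusted p of Vamp1 was 0.0243 in limma.

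Syt1, the calcium sensor of fast release, was lower in PMCAO than in sham on both arrays of 24 h by all of its probes, without passing the test. Its brightest probe (chr10:107960316-107960375) read -0.21 and 0.10 at 6 h and -0.51 and -0.08 at 24 h on samples 1 and 2. The fitted ratio at 24 h was -0.29 ± 0.14, or 0.816-fold, with a 95% interval of -0.64 to 0.05 and an adjusted p of 0.230 in limma (n = 2 arrays). All 10 of its 10 values at 24 h, from 5 probes on 2 arrays, were below 0 and lay between -0.51 and -0.08. At 6 h, 6 of the 10 values were above 0, between -0.21 and 0.20. The 5 probes gave 24 h ratios of -0.29, -0.30, -0.08, -0.28 and -0.31 from the brightest to the dimmest. The smallest change was read by probe A_52_P94201, printed above, whose arrays gave -0.08 and -0.09. With each probe tested on its own, the lowest adjusted p was 0.0791, at probe A_51_P297900. Probes of a gene on the same array share the RNA and the hybridisation, so they are no replicates of the condition, and this probe shares 11 bases with the brightest. Without sample 2 at 24 h, the Syt1 ratio was -0.51, from a single array of that time. With sample number as a block, its adjusted p was 0.0066 in limma.

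Among the vesicle membrane proteins, Syp, a glycoprotein long used as a marker of nerve terminals, behaved like Vamp2. Its single probe (chrX:6085999-6086058) read -0.31 and 0.28 at 6 h and -0.65 and 0.82 at 24 h on samples 1 and 2. Each time had 1 array on either side of 0. The 24 h ratio was 0.09 ± 0.35, with a 95% interval of -0.78 to 0.95 and an adjusted p of 0.903 in limma (n = 2 arrays). In the channels of 24 h, the log2 intensity was 13.84 for PMCAO and 14.49 for sham on sample 1, and 14.41 for PMCAO and 13.59 for sham on sample 2. Without sample 1 at 24 h the ratio was 0.82, and without sample 2 it was -0.65, each from a single array of that time.

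The SV2 glycoproteins take part in the calcium-dependent readiness of vesicles for release. Neither gene passed the test, and the values differed between probes. Sv2a, also the binding site of the antiepileptic drug levetiracetam, was represented by a probe at chr3:96068526-96068585 that read 0.14 and -0.10 at 6 h and -0.01 and 0.30 at 24 h on samples 1 and 2. Its 24 h ratio was 0.15 ± 0.12, with a 95% interval of -0.14 to 0.44 and an adjusted p of 0.470. The second Sv2a probe, 0.25 on average, read -0.46 on sample 1 and 0.97 on sample 2. The brightest Sv2b probe (chr7:70967742-70967801) read -0.08 and 0.24 at 6 h and -0.03 and 0.29 at 24 h, so the arrays differed more within a time than between times. The 24 h ratio of Sv2b was 0.13 ± 0.12, with a 95% interval of -0.18 to 0.44 and an adjusted p of 0.567. The other 2 Sv2b probes read below 0 on both arrays of 24 h, at -0.15 and -0.27 on average, so the sign of this gene depended on the probe.

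The synapsins were the members whose arrays pointed the same way at both times. Syn1 read 0.11 and 0.11 at 6 h and 0.08 and 0.66 at 24 h on samples 1 and 2, all above 0. Its 24 h ratio was 0.37 ± 0.15, or 1.29-fold, with a 95% interval of 0.01 to 0.73, an unadjusted p of 0.046 and an adjusted p of 0.166 in limma (n = 2 arrays). That value comes from the probe printed above, in which 81.7% of bases are G or C. The other tested Syn1 probe (chrX:19293917-19293976) read -0.15 and -0.06 at 24 h, or -0.10 on average, so the probes of Syn1 disagreed in direction. The remaining 2 Syn1 probes were not well above background on both arrays of any RNA group and were not tested. One of them, A_51_P415095, is placed on the plus strand, opposite to the other Syn1 probes. Without sample 1 at 24 h the Syn1 ratio was 0.66, from a single array of that time. With sample number as a block, its adjusted p was 0.0100 in limma.

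Syn2 had the closest arrays of the 10 at 24 h. Its brightest probe (chr6:115301986-115302045) read 0.12 and 0.04 at 6 h and -0.17 and -0.15 at 24 h on samples 1 and 2. The values of 24 h lay wholly below those of 6 h, which held for 1 of the 10 members. Over all genes, 42.9% had 24 h values wholly above or wholly below those of 6 h. The fitted ratio was 0.08 ± 0.08 at 6 h and -0.16 ± 0.08 at 24 h, with an adjusted p of 0.259 at 24 h, and the 24 h minus 6 h difference was -0.24 ± 0.11 with an adjusted p of 0.435 in limma (n = 2 arrays). All 3 Syn2 probes agreed in sign, with 6 of 6 values above 0 at 6 h and 6 of 6 below 0 at 24 h. Their 24 h ratios were -0.16, -0.27 and -0.04 from the brightest to the dimmest. No alternative changed the direction of the 24 h ratio of Syn2, which stayed between -0.34 and -0.15, or brought it past the test (adjusted p 0.0808 to 1).

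Of the 26 probes, 24 were tested, and 0 were called at either time or for the difference. In the same fit of 28978 probes, the share called in either direction was 0.625% for 6 h, 9.9% for 24 h and 0.963% for the difference. At an unadjusted p under 0.05, 5 of the 24 probes were lower and 1 higher at 24 h, 0 at 6 h, and 4 lower and 0 higher for the difference. The lower probes at 24 h belonged to Syt1, Syn2 and Sv2b. The share of all tested probes at this cut was not counted, so no shift is read from these counts. With 1 probe per gene, 2967 of all 19127 genes were higher and 2539 lower at 24 h at this cut. The numbers were 1179 and 494 at 6 h, and 1468 and 1246 for the difference. At 24 h, 11 of the 24 (45.8%) were below 0 on both arrays and 1 (4.17%) above 0 on both. The 11 were the 5 probes of Syt1, the 3 of Syn2, 2 of Sv2b and 1 of Syn1. Among all tested probes, 29.9% were below 0 on both arrays and 30.6% above 0 on both at 24 h. At 6 h, 1 of the 24 (4.17%) was below 0 on both arrays and 11 (45.8%) above, beside 26.8% below and 29.1% above among all tested probes. Probes of the same gene are not independent, so these shares describe 10 genes rather than 24 separate measurements.

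**Figure D2:**
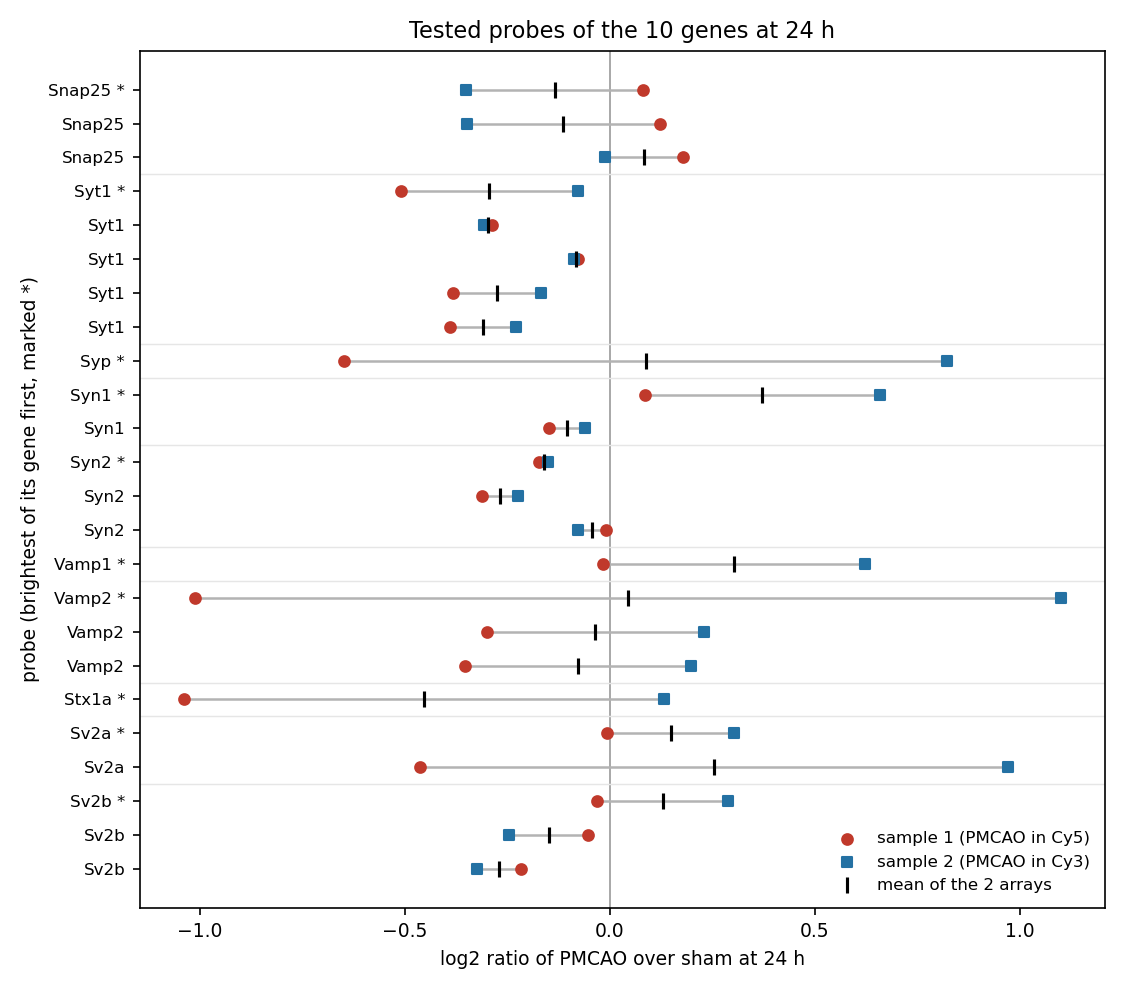
Log2 ratio of PMCAO over sham at 24 h (horizontal axis) for the 24 tested probes (rows, grouped by gene and ordered by brightness), with a circle for sample 1, a square for sample 2 and a tick for their mean. The probes of Syt1 and Syn2 sit left of 0 on both arrays, whereas those of Vamp2 straddle 0.

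The arrays of a time disagreed in sign for 8 of the 10 members at 6 h and for 7 at 24 h. Among all tested probes, 29.1% were above 0 and 26.8% below 0 on both arrays at 6 h. The shares were 30.6% and 29.9% at 24 h, and the rest were opposed or lacked a value. The brighter channel of the 7 members opposed at 24 h was Cy3 on both arrays for 6 genes (Syp, Vamp1, Vamp2, Stx1a, Sv2a and Sv2b) and Cy5 on both for 1 (Snap25). The share of all genes brighter in Cy3 on both arrays was not counted. These numbers thus do not show whether the lean is particular to the release genes. The distance of sample 1 from the mean of the arrays at 24 h was -1.06 for Vamp2, -0.74 for Syp and -0.59 for Stx1a on the log2 scale. For Syn2 it was -0.01. The median size of this distance was 0.25 over the 10 members, beside 0.11 over the 4392 genes at least as bright as the dimmest member. Of the 10, 9 lay above that median, and 4 lay above the 90th percentile of those genes, which was 0.30. At 6 h the median was 0.13 over the members and 0.07 over the genes of like brightness. Dye orientation equals sample number on these arrays, so a dye effect and a difference between the samples cannot be told apart.

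**Figure D3:**
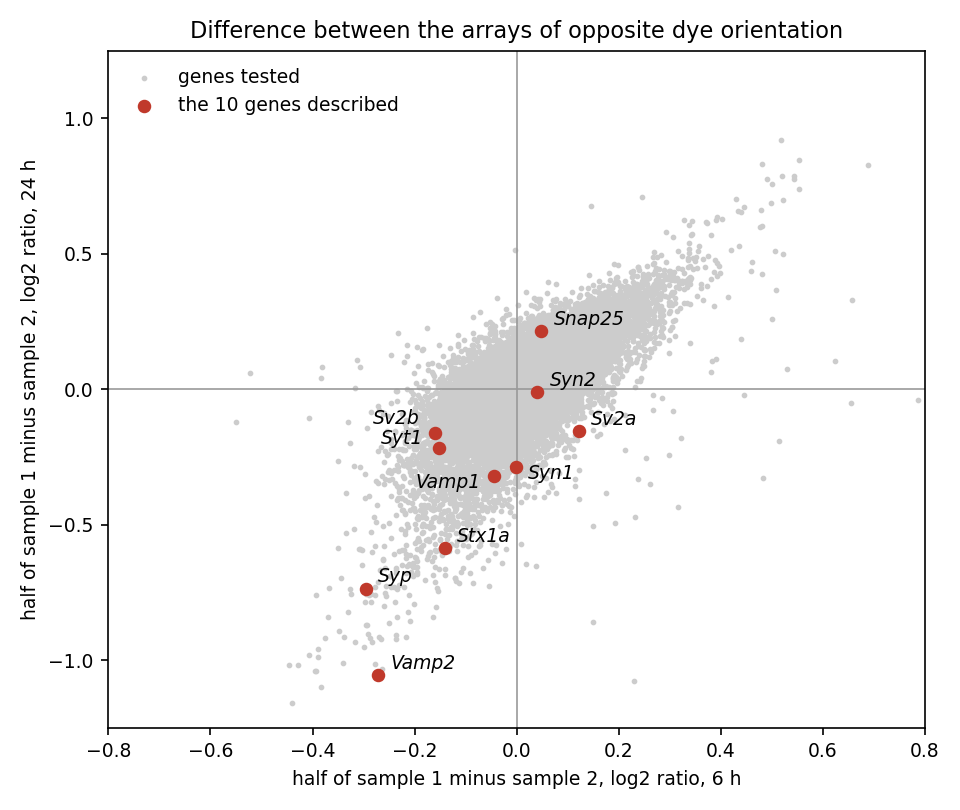
Distance of sample 1 from the mean of the 2 arrays of a time, on the log2 scale, at 6 h (horizontal axis) and 24 h (vertical axis), with the 10 release genes in red over all tested genes in grey. Vamp2, Syp and Stx1a lie far below 0 at 24 h, and 2 genes fall outside the axes.

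The other genes of the release pathway were followed in 7 lists of 115 genes, of which 114 were tested. In all, 3 of 114 (2.63%) were higher and 5 (4.39%) lower at 24 h by limma, beside 7.84% higher and 4.52% lower over all genes, so the share lower was near that of all genes and the share higher was below it. The 5 lower genes were listed under docking and priming or the active zone, and the 3 higher ones under 3 other lists. The median log2 ratio of the 114 was -0.07 at 24 h, and neither 6 h nor the difference had a call. At an unadjusted p under 0.05 the counts were 2 higher and 2 lower at 6 h, 8 higher and 22 lower at 24 h, and 3 higher and 11 lower for the difference. Of all 19127 genes, 1179 were higher and 494 lower at 6 h at this cut. The numbers were 2967 and 2539 at 24 h, and 1468 and 1246 for the difference. The median of the 10 release genes at 24 h was 0.07 with the brightest probe per gene, -0.04 with all detected probes averaged and -0.10 with median centring, so its sign depended on the setting. The counts at 24 h depended on the arrays used, with 22 higher and 22 lower without sample 1 of 24 h and 11 higher and 26 lower without sample 2. All genes moved as well, to 2920 higher and 2840 lower without sample 1 and 2491 higher and 1519 lower without sample 2. With median centring in place of loess, which shifts the median of all genes at 24 h to -0.09, none of the 114 was called, and of all 19127 genes 13 were higher and 0 lower. The ratios there were -0.95 for Cadps2, -0.73 for Unc13a and -0.72 for Pclo, no nearer to 0 than with loess. The scanner software's processed signals ended the calls of Syt10 (adjusted p 0.0866) and Unc13b (0.0600), among others, and leaving the background unsubtracted ended those of Vamp3 (0.0580) and Syt10 (0.0519). The ranges of adjusted p over all alternatives stand below for Unc13a, Unc13b, Syt10 and Vamp3. The ratios over all alternatives ran from -0.95 to -0.49 for Cadps2, from -0.72 to -0.38 for Pclo and from 0.47 to 0.59 for Slc18a2. Of the alternatives, median centring ended the calls of these last genes.

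Docking and priming factors, which ready vesicles for fusion, had 3 of 17 (17.6%) lower and 0 higher at 24 h, and a median of -0.21. Over all genes the shares were 4.52% lower and 7.84% higher. Cadps2, a priming factor of dense-core vesicles, read -0.67 and -0.95 on the arrays of 24 h, a ratio of -0.81 ± 0.10 with an adjusted p of 0.0080 in limma (n = 2 arrays). Its arrays of 6 h read 0.09 and 0.01, so the times did not overlap. Unc13a, the Munc13 isoform that primes most glutamatergic vesicles, fell by 0.58 on the log2 scale (SE 0.09, adjusted p 0.0167), and its relative Unc13b fell by 0.41 (SE 0.09, adjusted p 0.0399). Both arrays were below 0 for each. Where all detected probes of a gene were averaged, the Unc13a ratio was -0.14 with an adjusted p of 0.315, within 5.7e-05 to 1 over its alternatives, and Unc13b was -0.24 with 0.0880, within 0.00095 to 1. Unc13b was also not called when sample 1 or sample 2 of 6 h was left out (adjusted p 0.0962 for each). Rab3d, a small GTPase of secretory vesicles, had the smallest p of this list at 6 h, with a ratio of -0.34 and an adjusted p of 0.313.

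Active zone scaffolds and calcium channels had 2 of 18 (11.1%) lower and 0 higher at 24 h, beside 4.52% lower and 7.84% higher over all genes. The median was -0.18, with 16 of 18 ratios below 0. Pclo (piccolo), a scaffold of the release site, read -0.51 and -0.57 at 24 h, against 0.00 and 0.12 at 6 h, and its 24 h ratio was -0.54 ± 0.08 (adjusted p 0.0160, n = 2 arrays, limma). The scaffold Rims2 had a ratio of -0.40 with an adjusted p of 0.0664. Its ratio without sample 1 of 24 h was -0.50, from a single array of that time. With sample number as a block, its adjusted p was 0.0010 in limma. Rimbp2, which links scaffolds to calcium channels, had the smallest p at 6 h with a ratio of 0.40 and an adjusted p of 0.183.

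Calcium sensors and complexins had 1 of 18 (5.56%) higher and 0 lower, beside 7.84% and 4.52% over all genes, with a median of -0.16. The higher gene was Syt10, a synaptotagmin linked to activity-dependent secretion, at 0.37 and 0.93 on the arrays of 24 h, a ratio of 0.65 ± 0.15 with an adjusted p of 0.0458 in limma (n = 2 arrays). With all detected probes averaged its ratio was 0.21 with an adjusted p of 0.210, within 6.1e-08 to 1. Syt4 (-0.32, adjusted p 0.0860) and Doc2b (-0.42, adjusted p 0.102), other calcium-binding proteins of secretion, had the next smallest p. From a single array of 24 h, Syt4 was -0.41 without sample 1 and Doc2b was -0.655 without sample 2. With sample number as a block, limma called both lower, at adjusted p of 0.0036 for Syt4 and 0.0022 for Doc2b. Syt6 had the smallest p at 6 h, with a ratio of 0.24 and an adjusted p of 0.749.

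SNARE proteins and their recycling had 1 of 15 (6.67%) higher and 0 lower, beside 7.84% and 4.52% over all genes, with a median of 0.00. Vamp3 (cellubrevin), a synaptobrevin found in most cell types including glia, read 0.60 and 0.41 on the arrays of 24 h, a ratio of 0.50 ± 0.10 with an adjusted p of 0.0358 in limma (n = 2 arrays), within 0.00025 to 1 over its alternatives. Snap23, the non-neuronal relative of Snap25, had a ratio of 0.32 with an adjusted p of 0.102, and Vamp4 had 0.30 with 0.200. Without sample 2 of 24 h, which leaves a single array of that time, Snap23 was 0.46 and Vamp4 0.50. With sample number as a block, limma called both higher, at adjusted p of 0.0079 for Snap23 and 0.0060 for Vamp4.

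Vesicle membrane proteins and transmitter transporters had 1 of 15 (6.67%) higher and 0 lower, beside 7.84% and 4.52% over all genes. Their median was 0.08. Slc18a2, the vesicular monoamine transporter, read 0.59 and 0.58 on the arrays of 24 h, against 0.04 and 0.14 at 6 h, and its 24 h ratio was 0.59 ± 0.08 (adjusted p 0.0119, n = 2 arrays, limma). Slc17a8, the glutamate transporter VGLUT3, had -0.36 with an adjusted p of 0.0511, and Sv2c, the relative of Sv2a and Sv2b, had 0.27 with 0.133. Without sample 2 of 24 h, which leaves a single array of that time, Slc17a8 was -0.40 and Sv2c 0.38. With sample number as a block, limma called Slc17a8 lower (adjusted p 0.0026) and Sv2c higher (0.0115).

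The vesicular proton pump, which acidifies vesicles for loading, had 0 of 12 called by limma, 0 before adjustment, and a median of 0.04. Its named genes Atp6v1b2 (0.25), Atp6v1e1 (0.11), Atp6v1c1 (0.07) and Atp6v1d (-0.11) had adjusted p values of 0.507 to 0.839. Atp6v1b2 read -0.26 on sample 1 and 0.76 on sample 2, and Atp6v1e1 read -0.26 and 0.48, opposed in the same way as Syp and Vamp2. Without sample 1 of 24 h, which leaves a single array of that time, the ratios were 0.76 for Atp6v1b2 and 0.48 for Atp6v1e1. Vesicle endocytosis, which retrieves membrane after release, had 0 of 19 called and a median of 0.06, with 2 higher and 1 lower before adjustment. Over all genes at 24 h, 7.84% were called higher and 4.52% lower, and before adjustment 2967 and 2539 of 19127. Dnm2, the widely expressed dynamin, had a ratio of 0.44 with an adjusted p of 0.0519, the clathrin light chain Cltb had 0.29 with 0.0803, and Pacsin1, a neuronal membrane-bending protein, had -0.28 with 0.148. Without sample 1 of 24 h, which leaves a single array of that time, Dnm2 was 0.575 and Pacsin1 -0.43. With sample number as a block, limma called Dnm2 higher (adjusted p 0.00072) and Pacsin1 lower (0.0085). Ap2b1, a subunit of the clathrin adaptor AP2, had the smallest p at 6 h, reading 0.50 and 0.52 on the arrays, with an adjusted p of 0.0756.

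**Figure D4:**
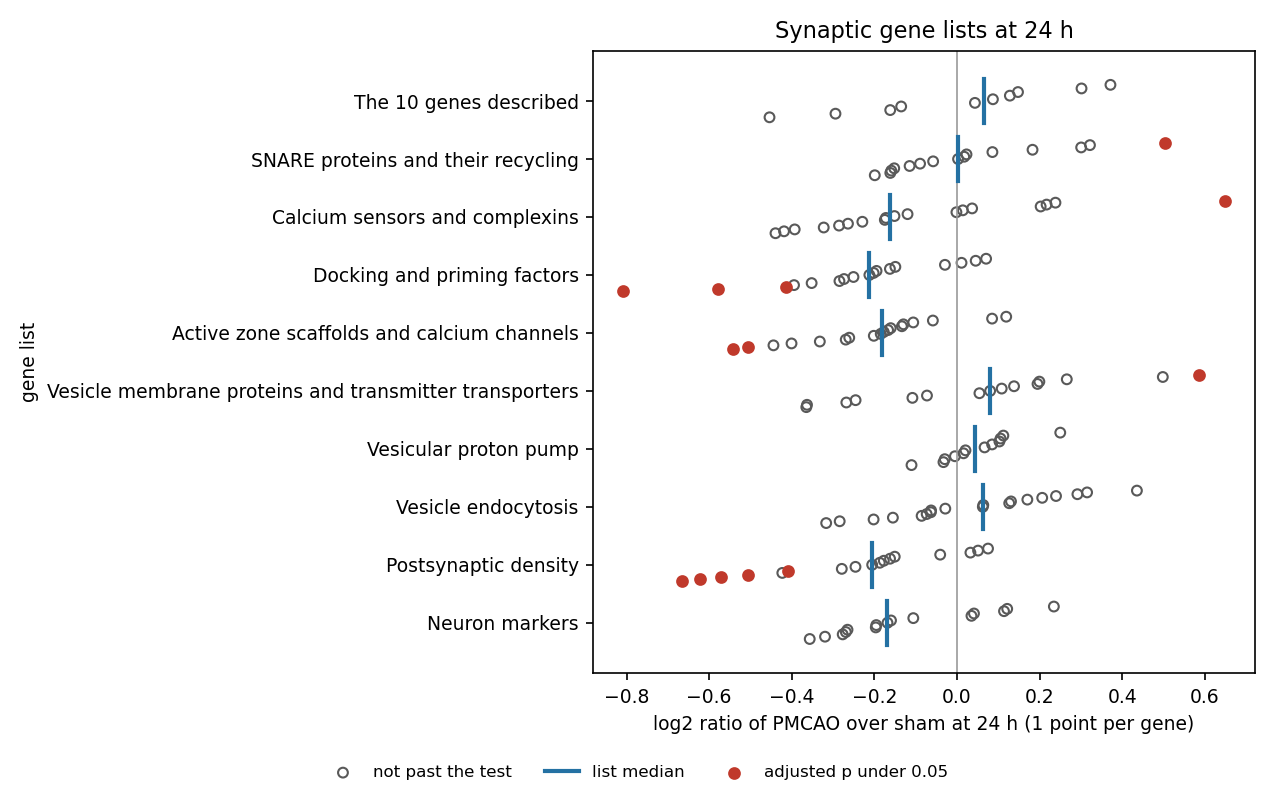
Log2 ratio of PMCAO over sham at 24 h (horizontal axis) for every tested gene of the 10 release genes, 7 pathway lists, the postsynaptic density list and the neuron markers (rows), with filled points past the test and a bar at each list's median. The filled points to the left lie in the docking, active zone and postsynaptic lists, and the 10 release genes hold no filled point.

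For contrast with the opposite side of the synapse, 17 of 19 genes of the postsynaptic density were tested. At 24 h 5 of 17 (29.4%) were lower and 0 higher, beside 4.52% lower and 7.84% higher over all genes, with a median of -0.21. Homer1, a scaffold that couples metabotropic glutamate receptors to calcium stores, read -0.59 and -0.74 on the arrays of 24 h, a ratio of -0.67 ± 0.09 with an adjusted p of 0.0089 in limma (n = 2 arrays). The others were Dlgap3 (-0.62) and Dlg3 (-0.41), scaffolds of the glutamate receptor complex, the adhesion molecule Nlgn3 (-0.57) and Homer2 (-0.51), with adjusted p values of 0.0121 to 0.0360. Dlg3 was not called when sample 1 or sample 2 of 6 h was left out (adjusted p 0.103 for each), without sample 2 of 24 h (0.0591) or with processed signals (0.0750), within 0.00098 to 1 over its alternatives. Dlg2 had the smallest p at 6 h, with 0.18 and an adjusted p of 0.669.

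All 15 neuron markers were detected and tested, and 0 of 15 were called at 24 h by limma, with 2 lower and 0 higher before adjustment and a median of -0.17. Their summed level on the log2 scale was 18.63 to 18.72 in PMCAO and 18.77 to 18.82 in sham at 24 h. In tissue RNA, fewer cells of a type and less RNA per cell cannot be told apart. Over all genes at 24 h, 7.84% were called higher and 4.52% lower, and before adjustment 2967 and 2539 of 19127. Among markers of other cells at 24 h, 7 of 9 (77.8%) neutrophil and monocyte genes were higher. Their summed log2 level was 15.97 to 16.22 in PMCAO and 10.92 to 11.09 in sham. Astrocyte markers had 4 of 10 higher (17.70 to 17.90 in PMCAO, 17.72 to 17.88 in sham), endothelial markers 3 higher and 1 lower of 10 (16.23 to 16.26 in PMCAO, 15.66 to 15.71 in sham), and microglia markers 1 higher and 3 lower of 12 (15.44 to 15.47 in PMCAO, 15.51 to 15.53 in sham). Oligodendrocyte markers had 1 of 10 lower, pituitary markers 1 of 6 higher (Prl), red blood cell markers 1 of 2 higher and choroid plexus markers 0 of 7 called. Their part in the ratios of the release genes was not tested.

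Stx1a was the member farthest from 0 at 24 h, and the genes outside the lists with the most similar ratios over the 4 arrays were Spred3, Ddn, Cacnb3, Tmem35a and Tyro3. The root mean square difference from Stx1a was 0.09 for Spred3 and for Ddn, 0.13 for Cacnb3, and 0.15 for Tmem35a and for Tyro3, on the log2 scale. Each read well below 0 on sample 1 and slightly above 0 on sample 2 at 24 h, for example -0.93 and 0.19 for Spred3, and none passed the test (adjusted p 0.300 to 0.428).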

How the data were processed

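Per the file headers, the deposited scanner tables come from Agilent Feature Extraction 9.5.3.1. They list each spot's intensity (mean, local background and processed signals of both dyes) and the log10 of the Cy5 to Cy3 ratio. The deposited series table gives a score per probe whose size equals the linear ratio of processed signals. Its medians were -0.96 on sample 1 and 0.97 on sample 2 at 6 h, and -0.92 on sample 1 and 0.96 on sample 2 at 24 h. What its sign means and whether it was centred stay unknown. All 4 arrays lay on 1 slide with 1 scan.

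Mean signals were corrected by normexp (offset 50) and loess in limma 3.58.1 (R 4.3.3), with control spots at weight 0 and 112 to 142 outlier spots per array removed. PMCAO channels had 66.3% to 73.7% of spots well above background and sham channels 67.3% to 73.6%. Each log2 ratio was expressed as PMCAO over sham. The brightest probe stood for a gene, which was tested if 1 or more of the 4 RNA groups had it well above background on both arrays. Genes were named through RefSeq (assembly GRCm38.p6) for 32719 of 41174 probes, and otherwise by the files. One linear model held a coefficient per time (2 residual and 3.53 prior degrees of freedom), with errors as model standard errors. Channel levels followed Aquantile normalisation. The fit was tested on simulated data. The number of arrays limits the precision.

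Named were all members and, per list, the 3 genes with the smallest p at 24 h, the 1 at 6 h, all called genes where 5 or fewer, and the 5 genes most like the member farthest from 0. Of these, 1 gene is not reported here. Members and lists were chosen with earlier results of these data known. Alternatives covered signals, background, normalisation, filters, probe choice, the replicate block, arrays left out and the series table.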

Additional observations from a re-analysis of the deposited data

How the results depend on the processing

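Counts of calls among the 10 release genes changed under arrays left out and under the block, and those of the pathway lists under these and 3 further alternatives named here. With an array left out, calls at 24 h ranged over 0 to 4 higher and 0 to 4 lower among members and 3 to 22 higher and 4 to 26 lower in the lists. For the 24 h minus 6 h difference the ranges were 0 to 4 higher and 0 to 3 lower among members and 0 to 15 higher and 0 to 14 lower in the lists, and at 6 h the lists had 0 to 2 higher and 0 to 1 lower. The shares of all genes in the fits without a 24 h array stand above. Without background subtraction the lists had 1 of 114 higher at 24 h, beside 7.17% higher over all genes. With median centring they had 0 higher and 0 lower at 24 h, beside 0.068% and 0%. With the 6 h arrays fitted alone they had 2 higher and 1 lower at 6 h, beside 4.91% and 1.85% over all genes.

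Sample number equals dye orientation. Over 19117 genes, the difference between samples 1 and 2 at 6 h correlated with that at 24 h at 0.718. There were only 2 sample numbers. The labels tie the number to dye orientation and not to shared animals. With the sample number as a replicate block, 2 members were higher (Syn1, Vamp1) and 2 lower (Syt1, Stx1a) at 24 h, with adjusted p of 0.0100, 0.0243, 0.0066 and 0.0138. The lists then had 4 higher and 2 lower at 6 h, 13 higher and 33 lower at 24 h, and 4 higher and 16 lower for the difference. Over all genes the block gave 1131 higher and 571 lower at 6 h, 3913 higher and 3683 lower at 24 h, and 1685 higher and 1530 lower for the difference, against 1499 higher and 864 lower at 24 h without it.

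Directions that changed belonged to ratios not past the test in the fit of all 4 arrays. With median centring, which moved the median of all genes to -0.09 at 24 h and to -0.10 for the difference, the ratios at 6 h were 0.11 for Snap25, 0.041 for Syt1, 0.065 for Syp and 0.036 for Vamp1. At 24 h they were -0.082 for Syp, -0.12 for Vamp2, -0.025 for Sv2a, -0.046 for Sv2b, -0.050 for Rimbp2, -0.063 for Atp6v1e1, -0.096 for Atp6v1c1 and -0.066 for Ap2b1. For the difference they were -0.15 for Syp, -0.25 for Vamp2, -0.11 for Sv2a and -0.19 for Sv2b. With all detected probes averaged, the ratios were 0.031 for Snap25 and 0.041 for Syt1 at 6 h, -0.023 for Vamp2, -0.097 for Sv2b and -0.099 for Ap2b1 at 24 h, and -0.14 for Vamp2 and -0.18 for Sv2b for the difference. For Ap2b1 at 24 h, processed signals gave -0.009 and the series table -0.007. The cause was not tested.

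With an array left out, ratios at 6 h ranged over -0.051 to 0.045 for Snap25, -0.21 to 0.096 for Syt1, -0.31 to 0.28 for Syp, -0.079 to 0.008 for Vamp1, -0.24 to 0.30 for Vamp2, -0.11 to 0.18 for Stx1a, -0.10 to 0.14 for Sv2a and -0.078 to 0.24 for Sv2b. At 24 h they ranged over -0.35 to 0.081 for Snap25, -0.65 to 0.82 for Syp, -0.018 to 0.62 for Vamp1, -1.01 to 1.10 for Vamp2, -1.04 to 0.13 for Stx1a, -0.008 to 0.30 for Sv2a, -0.031 to 0.29 for Sv2b, -0.26 to 0.76 for Atp6v1b2, -0.26 to 0.48 for Atp6v1e1, -0.20 to 0.33 for Atp6v1c1 and -0.27 to 0.030 for Syt6. For the difference they ranged over -0.35 to 0.084 for Snap25, -1.07 to 0.098 for Stx1a, -0.029 to 0.28 for Sv2a, -0.11 to 0.21 for Sv2b, -0.023 to 0.55 for Syn1, -0.63 to 0.84 for Syp and -1.05 to 1.07 for Vamp2. Neither filter on dim probes changed the call or the direction of any of the 62 ratios followed, while processed signals ended 4 calls, no background subtraction 2, averaged probes 4 and median centring 13. An array left alone at its time is assumed to vary like the other time, and keeps 1 dye orientation.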
